A study of Mus musculus with 6 samples.

Results

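The 10 genes described here are p53 targets and regulators of apoptosis: Cdkn1a, Mdm2, Bax, Ccng1, Bbc3, Pmaip1, Trp53inp1, Sesn2, Phlda3 and Eda2r. They were taken by official gene symbol from a table of 26199 genes measured in embryonic mouse hearts, and all 10 were present. RNA was sequenced from 3 control and 3 mutant heart samples at embryonic day 12, each pooled from several hearts. The study describes the controls as littermates of the mutants. Control embryos were Mrps5 fl/fl, with both copies of Mrps5 (a protein of the small subunit of the mitochondrial ribosome) flanked by loxP sites and no Cre. Mutant embryos were Mrps5 fl/fl; cTNT-Cre, in which a cardiac troponin T promoter drives Cre in cardiomyocytes, so that Mrps5 is left intact in the other cells of the heart. The controls carried no Cre transgene, so the loss of Mrps5 and the presence of Cre cannot be told apart in this comparison.

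p53 is a transcription factor that is kept at low levels by MDM2, which marks it for destruction, and that accumulates when DNA, ribosome assembly or other processes are disturbed. Its targets halt the cell cycle (Cdkn1a), feed back on p53 itself (Mdm2, Ccng1), or shift the balance of the BCL2 family at the mitochondrial outer membrane towards release of cytochrome c (Bax, Bbc3, Pmaip1). Several of the same genes are also induced without p53, Sesn2, Bbc3 and Pmaip1 among them, by the stress transcription factors ATF4 and CHOP, and p53 in the developing heart is best known for the losses of cells and embryos that follow when MDM2 or MDM4 is removed.

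p53 binds DNA as a tetramer, to paired copies of a consensus decamer. The promoter windows of the members, from 250 bases before to 50 bases after the annotated start, were read from RefSeq on GRCm38.p6 and are shown because they place the start sites whose transcripts are compared below. Entries were found for 8 of the 10 genes and gave 11 windows, with none for Pmaip1 and Trp53inp1. An exact match to the p53 consensus decamer was found in 4 of the 11 windows, each of a different gene, against 8.36% of the 32851 promoter windows in the table. Cdkn1a has a pair of annotated starts that lie 2790 bases apart. The window of the upstream start, chr17:29090729-29091028 on the plus strand, holds 2 matches, in capitals, which begin 73 and 51 bases before the start. That of the downstream start, chr17:29093519-29093818 on the plus strand, holds none.
Cdkn1a upstream start: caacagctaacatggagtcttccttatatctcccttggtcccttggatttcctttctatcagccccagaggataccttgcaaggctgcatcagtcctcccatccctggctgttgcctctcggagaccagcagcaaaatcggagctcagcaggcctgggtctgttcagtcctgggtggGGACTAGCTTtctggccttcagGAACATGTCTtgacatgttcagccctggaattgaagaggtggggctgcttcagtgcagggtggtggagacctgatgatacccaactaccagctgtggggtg
Cdkn1a downstream start: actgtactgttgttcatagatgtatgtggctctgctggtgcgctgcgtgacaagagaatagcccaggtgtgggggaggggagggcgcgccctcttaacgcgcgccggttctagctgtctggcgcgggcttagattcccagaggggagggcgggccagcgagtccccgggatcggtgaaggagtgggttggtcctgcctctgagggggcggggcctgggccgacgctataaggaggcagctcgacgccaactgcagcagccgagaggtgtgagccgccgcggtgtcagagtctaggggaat
The other matches, again in capitals with 10 bases on each side, begin 201 bases before the start of Bax (chr7:45467080-45467109, minus strand), 186 bases before that of Mdm2 (chr10:117710925-117710954, minus strand) and 185 bases before that of Ccng1 (chr11:40755452-40755481, minus strand).
Bax: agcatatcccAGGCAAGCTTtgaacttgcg
Mdm2: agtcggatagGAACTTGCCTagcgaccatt
Ccng1: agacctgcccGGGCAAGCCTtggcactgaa
The decamer matches itself on the opposite strand, so 1 search covered both strands. The C/EBP-ATF response element bound by ATF4 and CHOP dimers, searched as TGATGNAA on both strands, matched in 0 of the 11 windows and in 3.97% of all windows. Such matches describe the letters of these windows only, and no binding was measured.

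Levels are given as FPKM (sequenced fragments per transcript length and sequencing depth), summed over the transcripts of a gene. In control hearts the members spanned a wide range of levels per length. Ccng1, a cyclin that recruits a phosphatase to MDM2, was the highest at 63.7 ± 2.61 FPKM (SD, n = 3), followed by Bax at 24.6 ± 0.972 and Mdm2 at 18.3 ± 0.599. Trp53inp1 (11.2 ± 0.547) and Phlda3 (11.2 ± 1.297) overlapped and could not be ordered. Cdkn1a followed at 7.03 ± 0.693, Sesn2 (2.81 ± 0.351) and Bbc3 (2.59 ± 0.250) overlapped, and Eda2r (1.40 ± 0.111) and Pmaip1 (0.842 ± 0.0644) were the lowest. All neighbours in this order other than those overlapping pairs were separated in every control library.

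Before the comparison, the libraries were checked. Mrps5 itself stood at 9.65, 11.4 and 10.4 FPKM in the control libraries 1 to 3 and at 5.28, 7.41 and 10.4 FPKM in the mutant libraries 1 to 3. Thus the library labelled mutant replicate 3 had as much Mrps5 RNA as the controls, and the results of the members are given with and without it. The log2 fold change of Mrps5 was -0.44 (adjusted p = 0.339, limma, a linear model fitted across all genes), and it was -0.23 without mutant replicate 1 and -0.66 without mutant replicate 3. Transcripts that lost the floxed part could still be counted, so the gene level is an incomplete check of the deletion. Erythroid genes, mostly globins, made up 12.0 to 13.3% of all FPKM in the controls and 23.5, 10.8 and 22.0% in mutant libraries 1 to 3. Cardiomyocyte markers were abundant in every library, and 9 of 10 had lower estimates in the mutants, with a median log2 fold change of -0.40. Tnnt2, the troponin whose promoter drives Cre, stood at 1044, 948 and 983 FPKM in controls and 617, 667 and 683 FPKM in mutants (adjusted p = 0.0954, limma). In whole hearts, fewer cells of a type and less RNA per cell cannot be told apart. The hepatocyte markers Alb, Afp, Apoa1 and Ttr summed to between 21.5 and 281 FPKM in the controls and between 85.5 and 173 in the mutants, with no order by group, and their part in the results was not tested.

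Of the 10 members, 9 passed the filter, which asked for 1 FPKM or more in 3 or more libraries, and entered the test, each of them at 1 FPKM or more in all 3 controls. None passed an adjusted p of 0.05, a line that 0.0829% of the 13262 genes tested passed (11 genes). At an unadjusted p under 0.05, 5 of the 9 were higher in the mutants and 0 were lower, against 5.58% of all genes higher and 9.43% lower. These 5 were Sesn2, Bbc3, Cdkn1a, Bax and Eda2r, and they were also the 5 tested members for which every mutant library exceeded every control library, a pattern shown by 7.74% of all genes. No member had all mutant values below all control values, against 13.0% of all genes. The median log2 fold change over the 9 members was 0.23, where that over all genes was -0.02. The members were chosen with earlier results of these data known, so these contrasts with all genes are no independent evidence. The erythroid genes were then left out of the FPKM sums and the libraries rescaled. At an unadjusted p under 0.05, 962 of 13254 genes were higher and 1052 lower, in place of 740 higher and 1251 lower. The same 5 members were past that line, all of them higher.

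**Figure D1:**
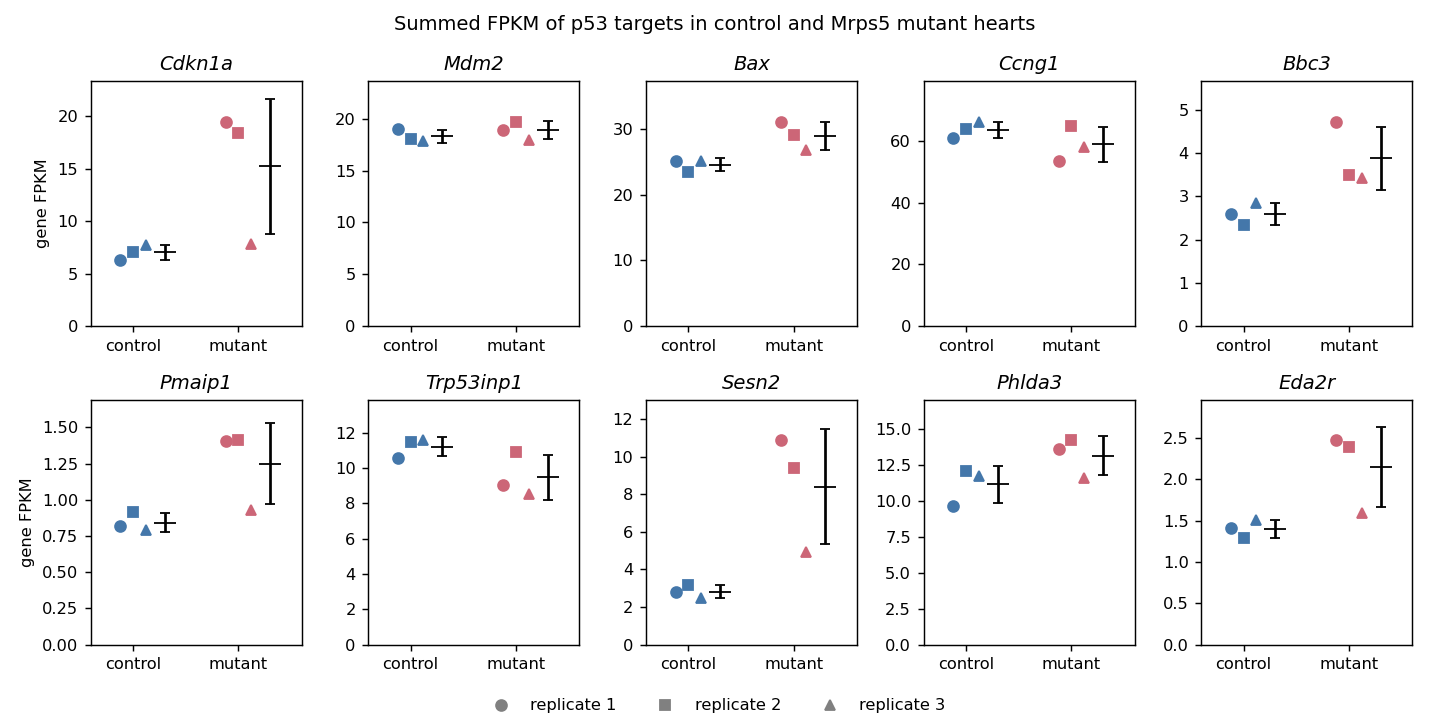
Summed FPKM of each of the 10 members in the 3 control (blue) and 3 mutant (red) libraries, with the marker shape giving the replicate number and the black bar the mean ± SD. Each y axis starts at 0 and has its own scale. Cdkn1a reached 19.5 and 18.4 FPKM in mutant replicates 1 and 2 and 7.82 in mutant replicate 3, next to controls of 6.32 to 7.70.

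Cdkn1a encodes p21, the inhibitor of cyclin-dependent kinases through which p53 arrests the cell cycle. Its level was 6.32, 7.08 and 7.70 FPKM in control libraries 1 to 3 and 19.5, 18.4 and 7.82 FPKM in mutant libraries 1 to 3. Mutant replicates 1 and 2 were far above the controls, and mutant replicate 3 exceeded the highest control by a small margin. The group means were 7.03 ± 0.693 and 15.2 ± 6.44 FPKM (SD, n = 3 each), a ratio of 2.17. On the scale of log2(FPKM + 1) the difference was 0.92 (SE 0.29, 95% interval 0.26 to 1.58, adjusted p = 0.216, limma). Without mutant replicate 3 the difference was 1.31 (adjusted p = 0.000988, limma), and Cdkn1a then passed the test as higher in the mutants.

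The table divides Cdkn1a among 3 transcripts, and the difference was not spread evenly over them. The main transcript, Cdkn1a-201, begins at the downstream start and held 81.1 to 95.0% of the gene's FPKM in every library. It stood at 5.78, 5.74 and 7.05 FPKM in controls and 17.7, 16.1 and 7.43 FPKM in mutants, and so carried most of the difference. Cdkn1a-202 begins exactly at the upstream start, whose window holds the 2 separate decamer matches printed above. This transcript was listed at 0, 0.629 and 0 FPKM in controls and at 1.27, 1.77 and 0.224 FPKM in mutants, with both of the first mutant libraries above all controls and mutant replicate 3 within their range. Cdkn1a-203, which begins further downstream, went the other way, with 0.540, 0.708 and 0.646 FPKM in controls and 0.518, 0.490 and 0.165 in mutants. Division of fragments among overlapping transcripts is an estimate, and transcripts this low rest on few fragments, so they are given without a test.

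**Figure D2:**
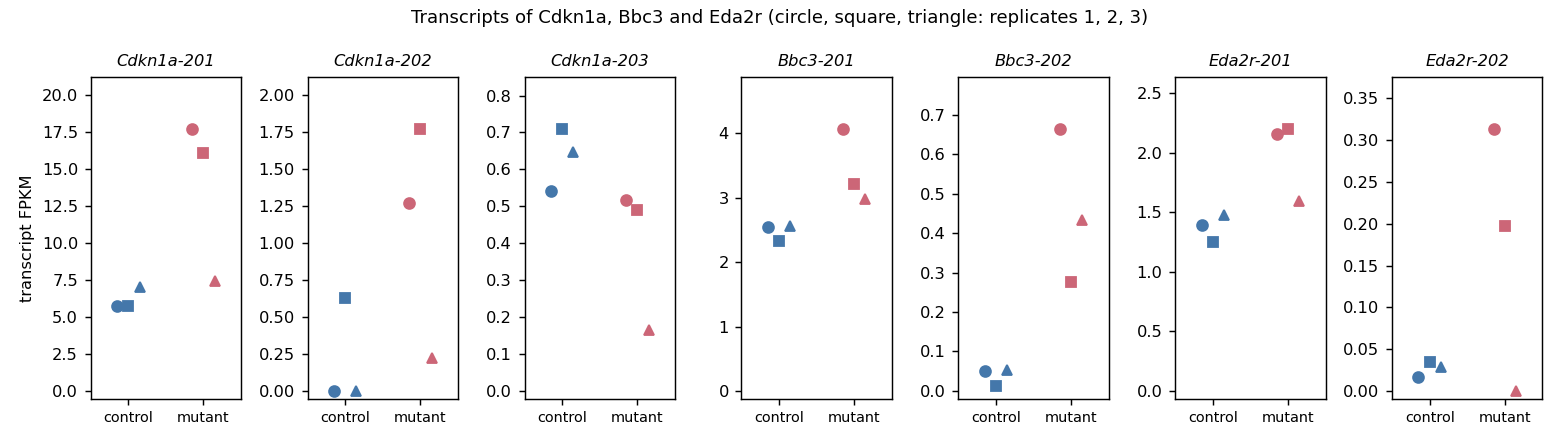
FPKM of single transcripts of Cdkn1a, Bbc3 and Eda2r in each control (blue) and mutant (red) library, with circles, squares and triangles for replicates 1, 2 and 3 and a separate linear scale in each panel. Cdkn1a-201 and Bbc3-202 exceeded all controls in each mutant library, whereas Cdkn1a-203 was lower in every mutant library.

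The regulators of p53 among the members did not follow Cdkn1a. Mdm2, the ubiquitin ligase that p53 itself induces, stood at 19.0, 18.1 and 17.9 FPKM in controls and 19.0, 19.7 and 18.0 FPKM in mutants. These ranges overlapped, and the log2 difference of 0.04 (SE 0.079, adjusted p = 0.840, limma) had a 95% interval of -0.14 to 0.22. In all libraries 94.0% or more of the Mdm2 level came from Mdm2-201. Ccng1 stood at 61.0, 63.9 and 66.2 FPKM in controls and 53.6, 64.9 and 58.2 FPKM in mutants, again overlapping, with a log2 difference of -0.11 (interval -0.33 to 0.10, adjusted p = 0.603, limma), and of 0.00043 with the erythroid share as a covariate. Without mutant replicate 3 the differences were 0.07 for Mdm2 (adjusted p = 0.766, limma) and -0.11 for Ccng1 (adjusted p = 0.708, limma). Over the libraries left out in turn, Mdm2 ranged from 0.01 (without mutant replicate 2) to 0.07 (without mutant replicate 3), and Ccng1 from -0.19 (without mutant replicate 2) to -0.05 (without mutant replicate 1). Both genes hold 1 decamer match in the windows printed above, as does Bax, while the upstream window of Cdkn1a holds 2. Pairs of decamers were not searched for.

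Sesn2 encodes sestrin 2, a leucine sensor that restrains the growth kinase mTORC1, and had the largest log2 difference of the members. It stood at 2.77, 3.18 and 2.49 FPKM in control libraries and at 10.9, 9.43 and 4.95 FPKM in mutant libraries. All 3 mutant libraries lay clear of the controls, including mutant replicate 3, the lowest of them. The means were 2.81 ± 0.351 and 8.42 ± 3.09 FPKM (SD, n = 3 each), a ratio of 2.99, and the log2 difference was 1.25 (SE 0.24, interval 0.71 to 1.79). The unadjusted p was 0.000667 and the adjusted p 0.106 (limma). Without mutant replicate 3 it was 1.55 (adjusted p = 0.000935, limma), past the test. Its relatives had smaller differences, of the opposite sign. Sesn1, also a p53 target, stood at 10.3, 10.3 and 10.01 FPKM in controls and 9.28, 8.56 and 8.63 in mutants (log2 difference -0.19, adjusted p = 0.326, limma), and Sesn3 had a difference of -0.15 (adjusted p = 0.590, limma).

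Bax, Bbc3 and Pmaip1 act at the mitochondrial outer membrane: BAX forms the pores, and PUMA (the product of Bbc3) and NOXA (that of Pmaip1) are BH3-only proteins that unleash it. Bax stood at 25.2, 23.5 and 25.2 FPKM in controls and 31.2, 29.1 and 26.9 FPKM in mutants, without overlap and with a ratio of means of 1.18. Its log2 difference was 0.23 (SE 0.085, adjusted p = 0.278, limma), and 0.28 without mutant replicate 3 (adjusted p = 0.201, limma). Bax-201 and Bax-203 shared its level in near equal parts in every library (46.8 to 51.2% and 41.4 to 49.1%), while Bax-202 and Bax-204 were listed at 0.

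Bbc3 stood at 2.60, 2.34 and 2.84 FPKM in controls and 4.72, 3.49 and 3.42 FPKM in mutants. The groups did not overlap, and mutant replicate 3 lay beside mutant replicate 2. The ratio of means was 1.496 and the log2 difference 0.43 (SE 0.13, interval 0.13 to 0.74, adjusted p = 0.212, limma), or 0.50 without mutant replicate 3 (adjusted p = 0.151, limma). A short transcript, Bbc3-202, made up 0.565 to 2.00% of the gene's FPKM in controls and 7.91 to 14.0% in mutants, on levels of 0.0518, 0.0132 and 0.0538 against 0.663, 0.277 and 0.434 FPKM. The main transcript, Bbc3-201, was higher as well, at 2.55, 2.33 and 2.56 FPKM against 4.06, 3.22 and 2.98.

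Pmaip1 was the member left out by the filter, at 0.822, 0.914 and 0.790 FPKM in controls and 1.41, 1.41 and 0.926 FPKM in mutants. The mutant libraries were all above the controls, mutant replicate 3 only by a narrow margin. An exact two-sided permutation test gave p = 0.1, which is the smallest value that 3 libraries against 3 allow. With no filter, its log2 difference was 0.28 (adjusted p = 0.426, limma).

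Eda2r encodes a TNF receptor family member that binds ectodysplasin A2, and stood at 1.41, 1.29 and 1.51 FPKM in controls and 2.47, 2.40 and 1.598 FPKM in mutants. Here too mutant replicates 1 and 2 lay together and mutant replicate 3 was close to the highest control. The log2 difference was 0.38 (SE 0.15, adjusted p = 0.285, limma), and 0.52 without mutant replicate 3 (adjusted p = 0.108, limma). Its short transcript Eda2r-202 stood at 0.0168, 0.0350 and 0.0283 FPKM in controls and at 0.313 (mutant replicate 1) and 0.198 FPKM (mutant replicate 2), and was listed at 0 in mutant replicate 3.

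Phlda3, a pleckstrin homology protein that holds back the survival kinase AKT, stood at 9.67, 12.1 and 11.7 FPKM in controls and 13.6, 14.2 and 11.6 FPKM in mutants. Mutant replicate 3 fell among the controls, and the log2 difference was 0.22 (SE 0.11, adjusted p = 0.410, limma), or 0.30 without it (adjusted p = 0.268, limma) and 0.13 without control replicate 1 (adjusted p = 0.791, limma). Trp53inp1, a nuclear protein that promotes p53 phosphorylation and autophagy, had lower estimates in mutants, with 10.6, 11.5 and 11.6 FPKM in controls and 9.005, 10.9 and 8.50 FPKM in mutants. Its ranges overlapped, and the log2 difference was -0.23 (SE 0.11, adjusted p = 0.360, limma), or -0.16 without mutant replicate 3 (adjusted p = 0.555, limma). Without mutant replicate 2 it was -0.32, with an unadjusted p of 0.00977 (adjusted p = 0.182, limma), and with the erythroid covariate -0.09.

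The members therefore differed in how far the single mutant libraries stood from the mean of the controls. On the log2(FPKM + 1) scale, mutant replicates 1, 2 and 3 lay 1.64, 1.45 and 0.65 above that mean for Sesn2 and 1.35, 1.27 and 0.14 above it for Cdkn1a. The same distances were 0.67, 0.33 and 0.30 for Bbc3, 0.53, 0.50 and 0.11 for Eda2r, and 0.33, 0.23 and 0.12 for Bax. Mutant replicate 3 was the lowest of the 3 for 9 of the 10 members, all but Ccng1. The share of all genes with mutant replicate 3 lowest was not counted, so this order is not shown to be particular to the members. For Trp53inp1, where the mutant libraries lay -0.29, -0.04 and -0.36 from the control mean, it was thereby the library furthest from the controls. The erythroid share had another order, high in mutant replicates 1 and 3 and, in mutant replicate 2, below every control (10.8% against 12.0 to 13.3%). With that share as a covariate, the log2 differences were 1.35 for Sesn2, 1.14 for Cdkn1a and 0.46 for Eda2r. These 3 members were higher at an unadjusted p under 0.05, against 4.91% of all genes. Bax (0.23, unadjusted p = 0.0798, limma) and Bbc3 (0.34, unadjusted p = 0.0819, limma) were then not past that line. With a filter of FPKM at least 5, Sesn2, Bbc3 and Eda2r were not tested, and 2 of the 6 members tested (Cdkn1a and Bax) were higher at that line, against 6.54%. Without mutant replicate 3, 2 of 9 members (Cdkn1a and Sesn2) passed the adjusted test as higher, against 0.965% of 13167 genes, and 6 of 9, with Phlda3 added, were higher at an unadjusted p under 0.05, against 6.39%. Markers of other cells differed in the same fit. Of 4 mesenchymal markers, 2 were higher at an unadjusted p under 0.05, and Pdgfra passed the adjusted test (0.58, adjusted p = 0.0236, limma). The summed level of these 4 was 153 to 162 FPKM in controls and 167, 198 and 138 FPKM in mutant libraries 1 to 3. Of 4 epicardial markers 1, Aldh1a2, was higher at the unadjusted line, with sums of 101 to 115 FPKM in controls and 126, 112 and 96.1 FPKM in mutants. Of 5 endothelial markers 1, Emcn, was higher at that line both in this fit (0.31, adjusted p = 0.318, limma) and with all libraries (0.27, adjusted p = 0.316, limma). Of 10 cardiomyocyte markers, Nppa, the natriuretic peptide, passed the adjusted test as higher (0.99, adjusted p = 0.0160, limma) and Tnni1, a troponin, as lower (-0.72, adjusted p = 0.0164, limma), and 6, Tnni1 among them, were lower at the unadjusted line. The part of these cells and of Mrps5 level in the results was not tested.

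**Figure D3:**
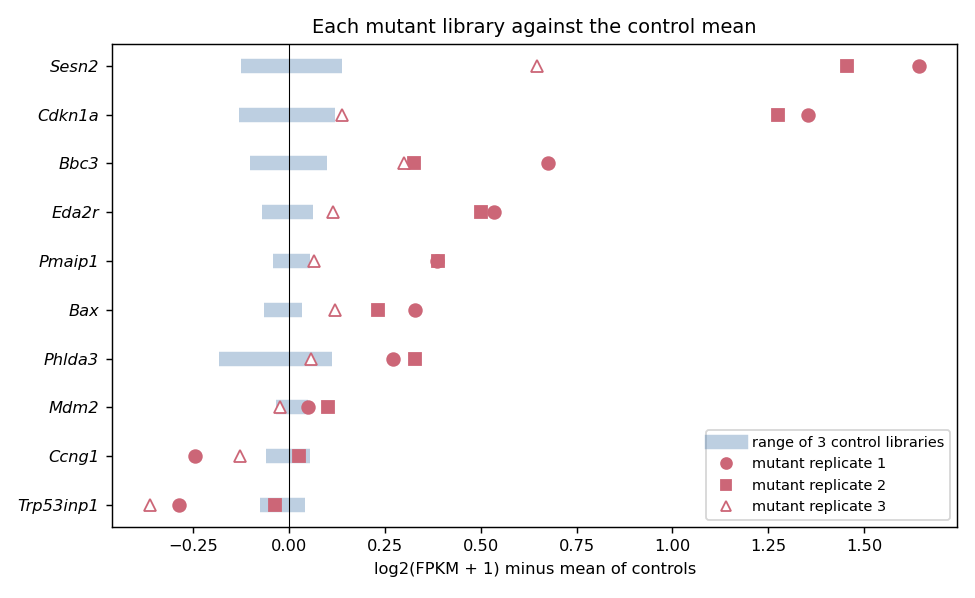
Distance of each mutant library from the mean of the 3 controls, in log2(FPKM + 1), for the 10 members sorted by mean difference, with the blue band giving the range of the controls. Open triangles, for mutant replicate 3, lie to the left of both other mutant libraries for 9 of the 10 members, all but Ccng1. The share of all genes with that order was not counted.

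Genes whose pattern over the 6 libraries was most like that of Cdkn1a were Eif4ebp1, the translation repressor 4E-BP1 (Pearson r = 0.999), Jdp2, a repressor that partners AP-1 factors (r = 0.995), and Cox6a2, a muscle subunit of cytochrome c oxidase (r = 0.994). Cox6a2 stood at 74.6, 74.9 and 91.2 FPKM in controls and 189, 182 and 82.0 FPKM in mutants, so that mutant replicate 3 lay within the control range. For Cdkn1a, mutant replicate 3 was above the highest control by a small margin. Among the members that passed the filter, to which the comparison was limited and which leave out Pmaip1, Eda2r (r = 0.982) and Sesn2 (r = 0.950) came nearest to Cdkn1a. These correlations run over 6 libraries of the same 2 groups, and are a description only.

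The p53 gene and its regulators were tested as a list of 11, of which 9 passed the filter. None had an unadjusted p under 0.05, and the median log2 fold change was 0.01. Trp53 itself stood at 25.9, 27.1 and 29.0 FPKM in controls and 29.8, 32.6 and 31.1 FPKM in mutants, without overlap and with a log2 difference of 0.18 (SE 0.082, adjusted p = 0.340, limma). The unadjusted p of Trp53, 0.0529, was under 0.05 in 6 of 16 alternatives, among them both rescalings (0.0241 and 0.0185), the replicate block (0.0460) and the erythroid covariate (0.0478), and its adjusted p was 0.25 or more in all of them (limma). The most abundant transcript of Trp53 alone gave a log2 difference of 0.78 (adjusted p = 0.621, limma). Mdm4, the partner of MDM2 that masks the p53 activation domain, had a difference of -0.16 (adjusted p = 0.619, limma). The kinase Chek2 (0.25, adjusted p = 0.434, limma) and the deubiquitinase Usp7 (0.14, adjusted p = 0.477, limma) likewise did not pass.

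Other p53 targets gave a mixed picture. Of 30 listed, 26 passed the filter, 4 were higher and 2 lower at an unadjusted p under 0.05, and the median was 0.10, both without Ddit4l, which was below 1 FPKM in every mutant and entered the test only through the controls. Gadd45a, a stress protein of growth arrest and DNA repair, had the smallest p, at 8.12, 7.64 and 8.88 FPKM in controls and 20.1, 14.5 and 12.9 FPKM in mutants. All its mutant values were above all control values, with a log2 difference of 0.85 (SE 0.15, adjusted p = 0.0954, limma), and it passed without mutant replicate 3 (0.97, adjusted p = 0.0144, limma). Dcxr, a carbonyl reductase, had a difference of 0.57 (adjusted p = 0.141, limma). Apaf1, the scaffold of the apoptosome, stood at 13.6, 12.2 and 13.5 FPKM in controls and 10.6, 10.1 and 11.3 FPKM in mutants, a difference of -0.28 (adjusted p = 0.221, limma) in the opposite direction. Gdf15, a secreted stress cytokine that is also a p53 target, was left out by the filter and is named because of its values: 0.0754, 0.268 and 0.0276 FPKM in controls and 3.88, 4.30 and 0.705 FPKM in mutants. Mutant replicates 1 and 2 again stood well apart from mutant replicate 3. No fold is given on such low control values.

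Of 33 genes tested in the BCL2 family outside the members and among the caspases and the apoptosome, 0 were higher and 4 (12.1%) lower at an unadjusted p under 0.05, a share near that of all genes lower. Among the other BCL2 family genes, 4 of 7 antiapoptotic ones were tested and none had an unadjusted p under 0.05 (Bcl2l1 0.27, Mcl1 0.12 and Bcl2 -0.08 in log2), although Mcl1, at 46.4, 49.7 and 49.0 FPKM in controls and 51.4, 54.5 and 52.3 FPKM in mutants, did not overlap between the groups. Of Bak1 and Bok, the pore formers related to Bax, Bok was lower in mutants at an unadjusted p under 0.05 (log2 difference -0.32, adjusted p = 0.303, limma). Of 7 BH3-only genes tested, 0 were higher and 2 lower at that line: Bcl2l11, which encodes BIM, at 9.61, 9.40 and 9.37 against 7.77, 8.46 and 7.97 FPKM (adjusted p = 0.299, limma), and Bad at 14.5, 12.7 and 15.3 against 11.04, 12.2 and 12.4 FPKM (adjusted p = 0.319, limma). Both lay below the controls in every mutant library, whereas Bbc3 and Pmaip1 of the same class lay above them. Of 20 caspase and apoptosome genes, all tested and not counting Apaf1, which is given with the p53 targets above (log2 difference -0.28, unadjusted p = 0.0132, limma), none was higher and 1, Cycs (cytochrome c), was lower at an unadjusted p under 0.05, with 92.0, 117 and 96.7 FPKM in controls and 69.3, 82.4 and 84.7 FPKM in mutants (adjusted p = 0.230, limma). Casp8 (-0.18, adjusted p = 0.391, limma), an initiator caspase, did not reach that line. Bulk RNA levels of these genes do not measure cell death.

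Relatives of single members were read in the same way. Of 6 CDK inhibitors besides Cdkn1a, 4 were tested and none had an unadjusted p under 0.05, with a median of -0.10, and Cdkn1c, by far the most abundant, stood at 439, 368 and 482 FPKM in controls and 280, 324 and 429 FPKM in mutants (log2 difference -0.33, adjusted p = 0.402, limma). Its difference without mutant replicate 3 was -0.50 (adjusted p = 0.150, limma). Among 9 tested death receptors and adaptors related to Eda2r, 1 was higher at that line: Tnfrsf21 (death receptor 6), at 6.30, 7.36 and 6.84 against 11.2, 8.18 and 13.0 FPKM (log2 difference 0.57, adjusted p = 0.170, limma). Here mutant replicate 3 was the highest library, unlike in Eda2r. Tnfrsf12a, the receptor of TWEAK, had a difference of 0.48 (adjusted p = 0.384, limma), or 0.75 without mutant replicate 3 (adjusted p = 0.0572, limma). Of 11 listed genes of the sestrin and TOR arm, which include the GATOR complexes, 9 were tested and 1 was higher, Ddit4 (REDD1, another mTORC1 inhibitor), at 7.17, 7.06 and 7.55 against 16.2, 11.6 and 7.21 FPKM, with mutant replicate 3 among the controls (log2 difference 0.56, adjusted p = 0.313, limma). Ddit4 passed without mutant replicate 3 (0.84, adjusted p = 0.0246, limma). Phlda1 (0.23), Ccng2 (0.15) and Trp53inp2 (-0.19) did not reach an unadjusted p of 0.05, and the values in parentheses are log2 differences. Without mutant replicate 3, Phlda1 was at 0.33 (unadjusted p = 0.00966, adjusted p = 0.161, limma).

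Genes of the ATF4 and CHOP response, which share Sesn2, Bbc3 and Pmaip1 with p53, were set beside the members. Of 12 listed, Chac1 and Nupr1 were below 1 FPKM in every control and entered the test only through their mutant values, so they are left out of the count and the median. The other 10 were all higher at an unadjusted p under 0.05, and 2 of them passed the adjusted test. Their median difference was 1.16 in log2. All 10 passed the adjusted test without mutant replicate 3. This list was chosen with earlier results of these data known, so its direction is no independent evidence. Trib3, a pseudokinase, rose from 3.14, 3.28 and 3.89 FPKM in controls to 31.8, 26.9 and 18.4 FPKM in mutants (log2 difference 2.56, adjusted p = 0.00310, limma), and Atf4 rose from 52.5, 58.1 and 57.5 to 152, 137 and 103 FPKM (1.19, adjusted p = 0.0313, limma). Counting the fit reported and its 16 alternatives, Trib3 passed in 16 (all but the erythroid covariate, adjusted p = 0.0537, limma) and Atf4 in 8. Atf4 did not pass with the replicate block (adjusted p = 0.0767, limma), with no filter, with eBayes without trend, with the most abundant transcript alone, with the erythroid covariate, without control replicate 1, 2 or 3, or without mutant replicate 1, and its adjusted p ranged from 0.000553 to 0.213 (limma). Ppp1r15a (GADD34) had a difference of 0.99 (adjusted p = 0.0507, limma). Ddit3, which encodes CHOP and is named for its role and not by its rank, stood at 8.82, 8.20 and 8.38 FPKM in controls and 44.8, 35.7 and 15.5 FPKM in mutants (adjusted p = 0.106, limma), and passed without mutant replicate 3 (log2 difference 2.12, adjusted p = 0.000203, limma). In Trib3, Atf4 and Ddit3, as in Sesn2, mutant replicate 3 was the lowest mutant library and still above every control.

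**Figure D4:**
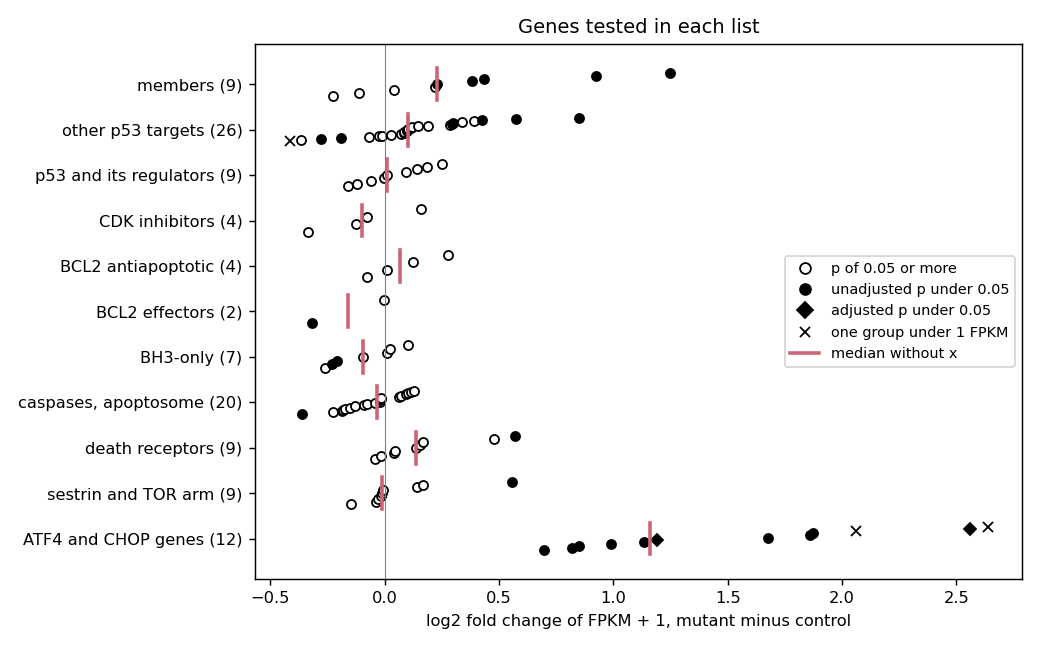
log2 fold change of FPKM + 1 (mutant minus control) for each gene tested in 11 lists, with the number tested in parentheses. Filled circles have an unadjusted p under 0.05, diamonds an adjusted p under 0.05 (limma), crosses passed the filter through 1 group only, and red lines are medians without the crosses, which stand at 0.23 for the members, 0.10 for other p53 targets, -0.03 for caspases and the apoptosome, and 1.16 for ATF4 and CHOP genes.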

How the data were processed

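RNA of 6 heart samples was sequenced, per the labels, as rRNA-depleted, strand-marking libraries, whereas the study's methods describe poly-A selection for ventricular tissue. The authors deposited 1 table of FPKM values for 60776 transcripts, and the submitters' processing notes name HISAT2, Bowtie2 2.2.8, StringTie 1.3.1, Cuffdiff 2.1.1 and the mouse build mm9 without giving their roles. Here FPKM were summed per gene (26199 genes, of which 2734 have no Ensembl identifier). Genes with FPKM of at least 1 in at least 3 libraries (13262) were tested on log2(FPKM + 1) with limma 3.58.1 in R 4.3.3 (empirical Bayes with a trend), control against mutant, with Benjamini-Hochberg adjustment over all of them. Changes of genes of low FPKM come out too small on it. The fit was tested on simulated data.

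The table gives no read counts, so the depth in reads is unknown and no counting error is given. The spacing of low values put the relative depths of the libraries at 1 to 1.61, an estimate that rests on 31 to 48 genes per library. FPKM summed to between 454692 and 515952 per library. Correlations between libraries were 0.979 to 0.986 within groups and 0.972 to 0.980 between groups. Each replicate is a pool of hearts, so p-values measure the spread between pools. The members and gene lists were chosen with earlier results of these data known. All members were named. From each list, the up to 3 genes with the smallest p, BCL2 family genes with an unadjusted p under 0.05, Trp53, Mdm4 and the 3 genes most correlated with Cdkn1a were eligible for naming. Sesn1, Gdf15 and Ddit3, and Chac1, Nupr1, Ddit4l and the markers Nppa, Tnni1 and Ttr, fall outside that rule and were chosen after their values were seen. Transcript names and starts are those of GENCODE M21, matched by identifier, and promoter windows those of RefSeq, both on GRCm38. Leaving out genes that passed the filter through 1 group only was chosen after seeing the data. Alternatives changed the pseudocount, filter, scaling, variance model, transcript choice, covariate, pairing and libraries.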

Additional observations from a re-analysis of the deposited data

How the results depend on the processing

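Over 16 alternatives, 138 of 141 values of the members kept their direction and their side of the adjusted threshold. Cdkn1a and Sesn2 passed it without mutant replicate 3 (log2 differences of 1.31 and 1.55), as did Gadd45a (0.97), and Ccng1 changed sign with the erythroid share as a covariate (0.00043). The genes with an adjusted p under 0.05 numbered 11, and 4 with the replicate block, 5 with no filter, 6 with eBayes without trend, 4 with the most abundant transcript alone and 0 with the erythroid covariate. That last fit left 1308 genes at an unadjusted p under 0.05, in place of 1991. Leaving out 1 library gave 3 to 261 genes at the adjusted threshold (123 without mutant replicate 2 and 261 without mutant replicate 3) and 1177 to 2173 at the unadjusted one (1177 without control replicate 1). Members at the adjusted threshold then numbered 0 to 2, and at the unadjusted one 3 to 6, with 3 without control replicate 2 and 3 without mutant replicate 1. All of them were higher except Trp53inp1, which was lower without mutant replicate 2 (-0.32). In the same fits, 439 to 862 of the 13069 to 13167 genes tested were higher at the unadjusted threshold, and 738 to 1311 were lower. The unadjusted count of members, 5, was 2 with a filter of FPKM at least 5, which left Sesn2, Bbc3 and Eda2r untested, and 3 with the erythroid covariate. With that covariate the log2 difference of Bax stayed at 0.23, and that of Bbc3 was 0.34 in place of 0.43. Other causes were not tested.

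Replicate numbers did not pair the libraries by the rule used (correlations of same-numbered deviations of 0.215, 0.108 and 0.0892, of which the last is below 0.1), although each library correlated best with its own number. The replicate block gave 2217 genes at the unadjusted threshold and changed no call of a member at the adjusted threshold, and Atf4 did not pass with it.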
